A study of Rattus norvegicus with 6 samples.

Results

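The miR-344 family of the rat brain was examined as the rows of the deposited miRNA table named rno-miR-344a-3p, rno-miR-344a-5p, rno-miR-344b-1-3p and rno-miR-344b-5p. These are 4 of the 5 names that defined the set, since rno-miR-344b-2-3p has no row of that name, and they are 4 of the 775 rows of the table. The table also holds 3 further rows of the family, miR-344b-3p, miR-344g and miR-344i, which were described with them, so that 7 rows carry the name miR-344. The 6 small RNA libraries came from brains of male Sprague-Dawley rats, bought at 7 weeks of age, with 3 libraries in each group. All of the rats had 2-vessel occlusion (2VO), a lasting ligation of both common carotid arteries that serves as a model of vascular dementia. The tilianin group received 40 mg/kg of tilianin, a flavonoid glycoside, by gastric tube each day for 4 weeks in 0.5% carboxymethylcellulose sodium at 5 mL/kg, and the 2VO group received this vehicle alone over the same time. The labels give the tissue only as brain, and the study names it cortical tissue beside the sequencing plots. Sham-operated rats were not analysed here, and neither the labels nor the methods say whether 1 library is 1 rat, so that the spread between libraries may be technical in part.

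A miRNA is a short RNA cut from a hairpin precursor. Its 5p and 3p forms come from the 2 arms of that hairpin, and bases 2 to 8 of the mature strand, the seed, pair with target mRNAs. The miR-344 family is known from rodents, and miR-344 was first cloned from cultured rat cortical neurons. Its genes lie near Ndn, Magel2 and Mkrn3, imprinted genes of the Prader-Willi region that are expressed from the paternal copy.

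The mature sequences are shown because the family was grouped by its seeds. They were taken from RefSeq (GRCr8) and are printed 5′ to 3′ with the seed in capitals, 5p strands before 3p strands. RefSeq holds 6 of the 7 rows by name. miR-344a-3p has no entry of that name, and the 2 strands that RefSeq lists for the gene Mir344-1 as miR-344-5p and miR-344-3p are given under those names.
miR-344-5p: uCAGGCUCcuggcuagauuccagg
miR-344a-5p: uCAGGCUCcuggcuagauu
miR-344b-5p: aGUCAGGCugcugguuauauuc
miR-344g: aGUCAGGCuccuggcaggaguc
miR-344-3p: uGAUCUAGccaaagccugaccgu
miR-344b-1-3p: gAUAUAACcaaagcccgacugu
miR-344b-3p: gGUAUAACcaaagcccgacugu
miR-344i: cUCUAGCCagggcuugacugca

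The 5p strands of the family carried 2 seeds. miR-344-5p and miR-344a-5p shared CAGGCUC, and miR-344b-5p and miR-344g shared GUCAGGC, where the shared letters CAGGC begin 2 bases further along the mature strand. All 4 of these 5p strands held the 7 letters UCAGGCU. Each 3p strand listed here had a seed of its own, and miR-344a-3p is not among them. miR-344b-1-3p and miR-344b-3p have the same length of 22 bases and differed by the single substitution A2G, with positions counted from the 5′ end and the base of miR-344b-1-3p first, and this base lies inside the seed. The 3 strands miR-344-3p, miR-344b-1-3p and miR-344b-3p shared the 8 letters CCAAAGCC, which begin at the last base of the seed or just after it.

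RefSeq places 7 miR-344 genes on the minus strand of rat chromosome 1, over 809.7 kb. Mir344b-2, Mir344b-1 and Mir344b-3 lie together, with gaps of 7.086 kb and 8.778 kb, and 610.4 kb separate them from Mir344a-2, which is followed by Mir344-1, Mir344g and Mir344i. The stretch holds 0 protein-coding genes, and 0 miRNA genes outside the family lie within 1 Mb of it. Ndn is the nearest protein-coding gene on the side of Mir344i, at 423 kb, followed by Magel2 at 454 kb and Mkrn3 at 500 kb. Mature miR-344b-5p is encoded by 3 of the genes and miR-344b-3p by 2, Mir344b-2 and Mir344b-3, whose hairpins are identical over their 71 bases. Reads of these copies cannot be told apart. The 3p strand of Mir344b-2 is thus held by the row miR-344b-3p, although no row is named miR-344b-2-3p. The Mir344b-1 hairpin of 98 bases shows how both arms are arranged, with the 5p and the 3p strand in capitals.
Mir344b-1: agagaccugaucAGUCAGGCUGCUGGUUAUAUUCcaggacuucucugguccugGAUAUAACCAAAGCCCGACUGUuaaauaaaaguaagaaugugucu
The authors' genome build is not given in the sources used here, so positions are given only as distances in the RefSeq annotation.

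**Figure D1:**
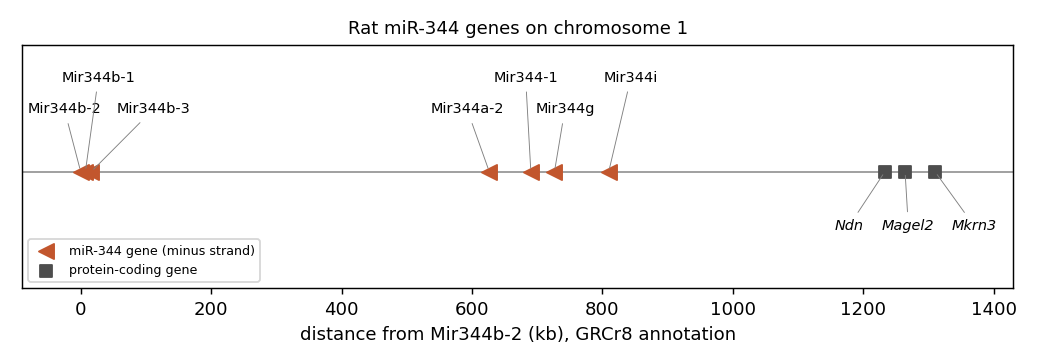
Positions of the 7 rat miR-344 genes (triangles, all on the minus strand) and of Ndn, Magel2 and Mkrn3 (squares), as distance in kb from Mir344b-2 in the GRCr8 annotation. The 3 miR-344b genes form 1 group, and 610.4 kb separate them from the other 4 genes.

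Depth ranged from 7428890 to 13198776 counts among the 2VO libraries and from 7175872 to 9464216 among the tilianin libraries. Brain-enriched miRNAs were abundant in all 6 libraries. The 10 miRNAs listed as neuronal or brain-enriched, miR-124-3p and miR-9a-5p among them, summed to between 132000 and 165000 CPM (counts scaled to library size by TMM) among the 2VO libraries and to between 86000 and 164000 CPM among the tilianin libraries, and none of the 10 was at 0. None of these 10 rows matched RefSeq genes on the minus strand alone, where the miR-344 genes lie. They therefore do not show how well rows of that strand were read. Among the libraries, tilianin replicate 2 was the least like the rest. Across tested miRNAs its Spearman correlation with each other library was 0.936 to 0.957, whereas the remaining 5 correlated at 0.983 to 0.992.

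The miR-344 rows held no reads in any brain library of either group. rno-miR-344a-3p had 0 counts in 2VO replicates 1, 2 and 3 and 0 counts in tilianin replicates 1, 2 and 3. The same 6 zeros were listed for its partner of the other hairpin arm, rno-miR-344a-5p, and for rno-miR-344b-5p and rno-miR-344b-1-3p. Both arms of the miR-344a and miR-344b hairpins were thus empty, and so were the other rows of the family, miR-344b-3p, miR-344g and miR-344i. There was no spread among libraries, and the groups could not be ordered, with or without tilianin replicate 2.

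A count of 0 allows up to 3 expected counts in a library at 95% confidence. For each miR-344 row this limit was 0.327, 0.232 and 0.388 CPM in 2VO replicates 1, 2 and 3. It was 0.326, 0.462 and 0.366 CPM in tilianin replicates 1, 2 and 3. The deepest library, 2VO replicate 2, had the lowest limit and the shallowest, tilianin replicate 2, the highest. Between 408 and 428 rows of the table lay above 3 counts in a library. These limits cover counting error only, as the methods mention no molecular identifiers, and they hold for what the deposited table counted.

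The study screened miRNAs between the tilianin and the 2VO group by 2 thresholds, a p-value under 0.05 without adjustment and a log2 fold change of more than 1 in either direction. In edgeR's quasi-likelihood test, 26 of the 454 rows that reached 10 counts over all libraries met both (5.73%), of which 21 were higher (4.63%) and 5 lower (1.1%) in the tilianin group. The 21 became 6 with limma-voom, 9 with the replicate block, 8, 7 and 9 without 2VO replicates 1, 2 and 3, and 9 without tilianin replicate 2. The 5 became 8 with library totals, 3 with limma-voom, 3 with the Wald test of DESeq2, 2 with filterByExpr and 2 without 2VO replicate 2. None of the 4 miR-344 rows that define the set, and none of the other 3, could enter this test, since each had 0 counts in total. No fold change was therefore computed for the family, and a difference between the groups below the limits above was not detectable at this depth. An effect of tilianin on the family was neither shown nor bounded in relative terms.

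Rows of the Hox-cluster, choroid plexus and epithelial, erythroid, muscle and myeloid lists were among those called higher in the tilianin group. Of all tested rows, 5.73% were called. The summed level of the 5 Hox-cluster rows ranged from 89.8 to 149 CPM in the 2VO libraries (median 129), with miR-196b-5p at 0 throughout. It ranged from 321 to 21700 CPM in the tilianin libraries, where the median was only 489 CPM, with 2 rows called. This sum was nearly all miR-10a-5p and miR-10b-5p, since miR-196a-5p had 10 counts in total and miR-615 had 1. The 4 choroid plexus and epithelial rows ranged from 120 to 152 CPM (median 133) and from 123 to 1080 CPM (median 349), with 3 called. The lowest tilianin library of this list lay inside the 2VO range. The row not called, miR-449a-5p, had a log2 fold change of -0.59. The 3 erythroid rows ranged from 155 to 198 CPM and from 338 to 881 CPM (medians 156 and 406), with 1 called. The 4 muscle rows ranged from 88.5 to 131 CPM and from 121 to 492 CPM (medians 122 and 182), with 1 called. The lowest tilianin library lay inside the 2VO range for muscle too, and miR-1-3p, a minus-strand row, had 1 count in total. The 4 myeloid rows ranged from 327 to 459 CPM and from 460 to 753 CPM (medians 369 and 499), with 1 called, miR-223-3p, at 446 counts in total. The myeloid sum was nearly all miR-142-5p, with 23703 counts, which was not called (log2 fold change 0.54). The erythroid sum was nearly all miR-486, with 17138 counts in total, since miR-144-3p had 56 and miR-451-5p had 6. None was called of the 10 brain-enriched rows, of the 2 endothelial rows, at 5370 to 8550 CPM and 6510 to 7200 CPM, or of the 3 oligodendrocyte rows, at 18.2 to 35.3 CPM and 17.5 to 50.4 CPM. The oligodendrocyte sum was nearly all miR-338-3p, with 1540 counts in total, since miR-219a-2-3p had 18 and miR-219a-5p had 1. All 3 are minus-strand rows. Some of these lists hold miRNAs that the study had picked from these libraries, and their part in the calls was not tested.

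miR-410-3p, a miRNA of the large imprinted cluster on chromosome 6, was read well and shares its seed with a member of the family. Its seed AUAUAAC is that of miR-344b-1-3p, and the letters outside it differ between the 2 strands.
miR-410-3p: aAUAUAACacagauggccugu
miR-344b-1-3p: gAUAUAACcaaagcccgacugu
In 2VO replicates 1, 2 and 3, miR-410-3p was at 69.1, 78.1 and 77.4 CPM. It was at 53.0, 34.3 and 71.7 CPM in tilianin replicates 1, 2 and 3. The lowest value was that of tilianin replicate 2, and the groups overlapped, since tilianin replicate 3 lay above 2VO replicate 1. Its mean was 74.9 ± 5.01 CPM without tilianin and 53.0 ± 18.7 CPM with it (SD, n = 3 each). This gave a log2 fold change of -0.50 with a standard error of 0.278, which did not pass (adjusted p = 0.746, edgeR). Without tilianin replicate 2 it was -0.25. Without tilianin replicate 3 it was -0.78, with an unadjusted p of 0.0213 in edgeR's test, under the p threshold but not past the fold threshold. A two-sided exact permutation test on log2(CPM + 1) gave p = 0.2, where 3 libraries against 3 cannot give less than 0.1. The counts of miR-410-3p were 74.3 to 337 times the 3 counts that a row at 0 allows. Its gene is on the plus strand, whereas the miR-344 genes are on the minus strand, where rows were more often at 0. The ratio therefore does not tell how much scarcer the RNA of miR-344b-1-3p was.

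**Figure D2:**
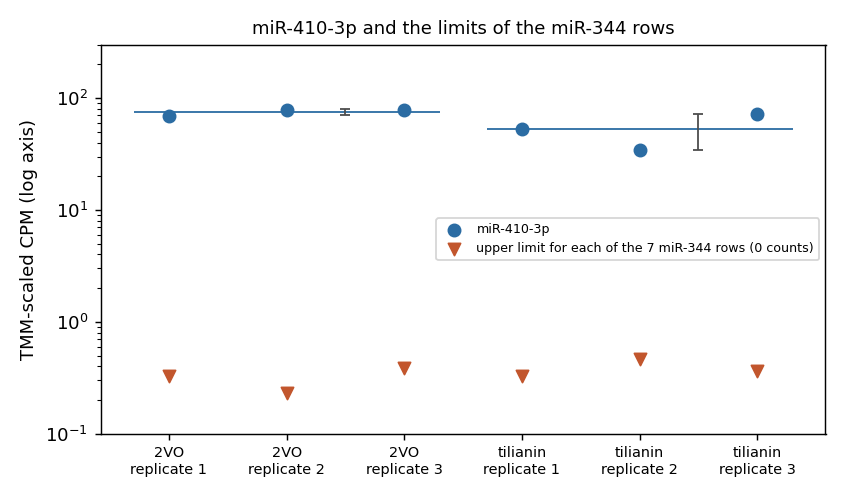
TMM-scaled CPM on a log axis in each library. Circles are miR-410-3p with the group mean (line) and SD (bar), n = 3 each. Triangles are the upper limit that 0 counts allow for each of the 7 miR-344 rows. These limits lie between 0.232 and 0.462 CPM, far below miR-410-3p in every library. The gene of miR-410-3p is on the plus strand and the miR-344 genes are on the minus strand.

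The other seed that the family shares outside itself is that of miR-344a-5p and miR-484. miR-484, whose gene is also on the minus strand, had 0, 2 and 1 counts in 2VO replicates 1, 2 and 3 and 0 counts in each tilianin replicate. Its count was under 3 in all 6 libraries, and its total was too low for a fold change.

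Empty rows were also set side by side by the number in the miRNA's name. Every row was at 0 for 99 of the 362 numbers in the table. Of these, 97 were among the 320 numbers with fewer than 4 rows, and 2 among the 42 numbers with at least 4 rows, miR-344 with 7 rows and miR-743 with 4 rows. In the table as a whole, 224 of the 775 rows (28.9%) were at 0 in all 6 libraries. Of the 27 rows with 2 or more genes in RefSeq, 3 were at 0, and 2 of these 3 were miR-344b-5p and miR-344b-3p.

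The strand of the gene did move with empty rows. Of the 689 rows that matched a RefSeq name, 679 had all of their genes on 1 strand. All 6 miR-344 rows that matched are on the minus strand. Among the other rows, 146 of 282 minus-strand rows were at 0 in all libraries (51.8%), against 47 of 391 plus-strand rows (12.0%). The median row held 0 counts over the 6 libraries on the minus strand and 626 on the plus strand. At least 1000 counts were reached by 24 minus-strand and 177 plus-strand rows. On chromosome 1, where the family lies, 25 of 30 other minus-strand rows were at 0 (83.3%), against 6 of 37 plus-strand rows (16.2%). These are counts of rows in 1 table, and rows of 1 hairpin or of 1 gene cluster are not independent. Rows with neighbouring or shared numbers were at 0 together on the minus strand, such as miR-290, miR-291b and miR-294, or all 4 rows of miR-743. How much of the difference between strands such sets make up, and whether brain expresses them, was not tested.

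**Figure D3:**
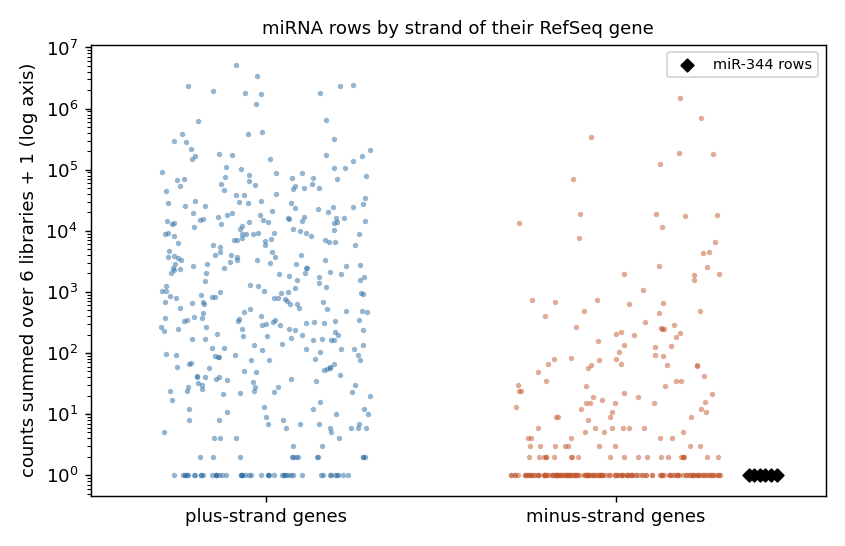
Counts summed over the 6 libraries, plus 1, on a log axis, for each miRNA row whose RefSeq genes lie on 1 strand (391 plus-strand and 282 minus-strand rows). The 6 matched miR-344 rows (diamonds) lie at 0 counts beside the other minus-strand rows, 51.8% of which are also at 0.

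The strands also differed within seeds, where rows that share bases 2 to 8 were set side by side. Such rows need not be of related miRNAs, as with miR-376c-3p and miR-741-5p. Some lie on opposite strands of the same locus, as with miR-299a-3p and miR-299b-3p. Outside the family, 33 seeds had rows on both strands. The highest plus-strand row exceeded the highest minus-strand row in 27 of them, and the reverse held in 5. The numbers of rows were unequal for some seeds, as with 8 plus-strand rows against 1 for let-7. Some orders rested on few counts or were near ties. Of the 27, miR-130b-3p and miR-130a-3p had 6 and 5 counts, and miR-299a-3p and miR-299b-3p had 292 and 286. Of the 5, miR-3084c-5p and miR-3084a-5p had 0 and 1. As examples chosen after their values were seen, miR-146b-5p had 417196 counts over the 6 libraries on the plus strand and miR-146a-5p 154 on the minus strand, miR-30a-5p had 1779257 on the plus strand and miR-30e-5p 63 on the minus strand. miR-101a-3p was an exception, with 71426 on the minus strand against 15475 for miR-101b-3p on the plus strand. The pair of miR-410-3p and miR-344b-1-3p, with 3542 and 0 counts, had the same order as the 27.

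**Figure D4:**
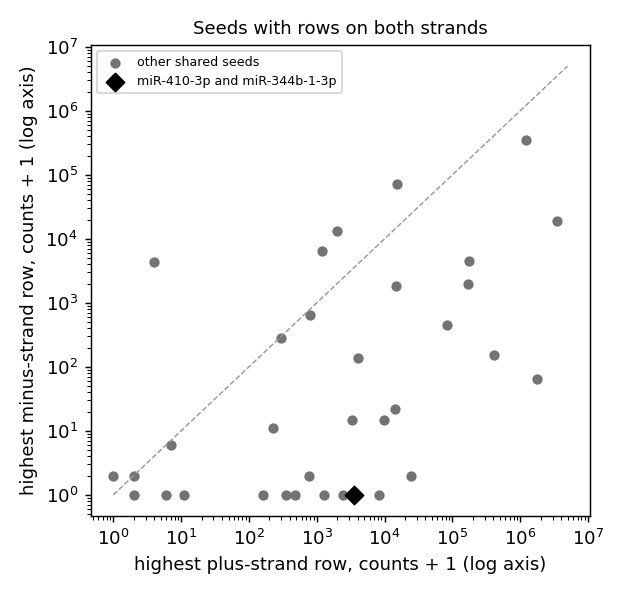
Highest plus-strand against highest minus-strand row for each seed with rows on both strands, as counts summed over the 6 libraries plus 1, on log axes. The diamond is miR-410-3p with miR-344b-1-3p, the dashed line marks equal counts, and 27 of the other 33 seeds lie below it.

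The minus strand was not empty throughout. Of the counts on rows with genes on 1 strand, minus-strand rows held 8.46 to 9.51% in the 2VO libraries and 8.57 to 10.0% in the tilianin libraries. In all, 95.5% of the minus-strand counts were in 7 rows, miR-24-3p, miR-27b-3p, let-7i-5p, miR-27a-3p, miR-23b-3p, miR-23a-3p and miR-101a-3p, which were picked after their values were seen. The strand is that of GRCr8 and may be turned in the build that the authors used. The part of the strand in the zeros of the miR-344 rows was not tested. A lack of miR-344 RNA in these brains and reads of these loci missing from the table cannot be told apart here.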

How the data were processed

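Small RNA of 6 rat brain libraries was sequenced after preparation with a TruSeq small RNA kit. The authors deposited raw counts of reads per mature miRNA for each library, without normalization. The submitters' processing notes name FastQC 0.11.2, Trimmomatic 0.36, cutadapt 1.14 and DESeq2 1.12.4, while the aligner, the counting program, the miRNA reference and the genome build are not given in the sources used here. Columns were matched to samples by the library code in the labels, where 2VO replicate 3 carries the number 4.

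The members and lists were chosen with earlier results of these data known. Rows with at least 10 counts in total (454) were scaled by TMM and tested with edgeR 4.0.16 (R 4.3.3) on group alone, with Benjamini-Hochberg adjustment. Standard errors are approximations that divide the log2 fold change by the root of its F statistic. The code was tested on simulated data. The planned tests, arm ratios and pattern matching of the miR-344 rows could not be made, since their counts were 0. Named miRNAs were the family, those sharing bases 2 to 8 with a member, and miRNAs of lists for brain-enriched, oligodendrocyte, Hox-cluster, erythroid, choroid plexus and epithelial, muscle, myeloid and endothelial miRNAs. Strand, copy number and sequences came from RefSeq (GRCr8), where 689 of 775 rows matched by name and 86 did not. The comparison by strand was added after the zeros were seen. Alternatives were DESeq2 1.42.0 (size factors and Wald test), library totals, limma-voom (limma 3.58.1), 2 other filters, a replicate block, and fits without each library.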

Additional observations from a re-analysis of the deposited data

How the results depend on the processing

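The zeros of the miR-344 rows were the same under every setting, since scaling, filters and left-out libraries do not change a count of 0. No fold change of a member, summed level or arm ratio could be had under any of them. The highest limit of a count of 0 was 0.418 CPM with library totals. The share of rows at 0 was 12.3 to 12.8% on the plus strand and 52.1 to 53.9% on the minus strand with each library left out in turn. On chromosome 1 it was 16.2% and 83.3%, and rows under 10 counts in total made up 21.0% and 69.1%, both added after the data were seen. Of all miRNAs, the upregulated ones were 6 with limma-voom, 9 with the replicate block and 7 to 29 with each library left out (9 without tilianin replicate 2, and 8, 7 and 9 without 2VO replicates 1, 2 and 3). The downregulated ones were 2 with filterByExpr, 3 with limma-voom, 8 with library totals, 3 with the Wald test of DESeq2 and 2 to 5 with each library left out (2 without 2VO replicate 2). With edgeR's quasi-likelihood test 0 miRNAs had an adjusted p under 0.05, and 33 had an unadjusted one. The adjusted count was 0 with limma-voom, 3 with the Wald test of DESeq2 and 0 to 4 with each library left out (1 without tilianin replicate 1, 4 without tilianin replicate 2). What moved these counts was not tested. The log2 fold change of miR-410-3p stayed negative and did not meet both thresholds under any of these settings. It was -0.25 without tilianin replicate 2 and -0.78 without tilianin replicate 3, with an unadjusted p of 0.0213 (edgeR) in the latter. The correlation of same-numbered libraries around their group means was -0.121 for number 1, 0.00917 for number 2 and 0.297 for number 3. Differently numbered libraries were not compared, so whether the replicate numbers pair the libraries was not settled.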
